A study of Oryza sativa Indica Group with 12 samples.

Results

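Cell cycle genes of rice roots were taken as every probe set whose gene symbol or synonym begins with CYCA, CYCB, CYCD, CDKA, CDKB, MCM, PCNA or KRP, followed by nothing, a digit or a hyphen. The rule used names alone and no measured value, but it was chosen with earlier results of these data known. It found 41 probe sets for 31 genes, among 22436 probe sets for 17905 genes that the array annotation ties to exactly 1 gene. A further 6 genes meet the rule by name but have no probe set listed for them here (CDKB1-1, CYCA3-1, CYCB1-5, CYCD2-1, KRP2 and KRP3).

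These genes run the division cycle of plant cells, which in roots takes place mainly in the meristem at the tip and in young lateral roots. In G1, D-type cyclins (CYCD) activate the kinase CDKA, which acts on the retinoblastoma-related protein and so opens the way to DNA synthesis, while Kip-related proteins (KRP) bind and inhibit the cyclin-kinase complexes. In S phase, the MCM helicase unwinds DNA at replication forks and PCNA is the sliding clamp that holds the polymerase on its template. A-type cyclins (CYCA) act between S phase and mitosis, and B-type cyclins (CYCB) with the plant-specific kinases CDKB drive the passage through G2 and mitosis. CDKA itself is present through the whole cycle. The probe sets were therefore read in 3 phase classes, G1 (CYCD and KRP, 16 probe sets), S (PCNA and MCM, 11) and G2/M (CYCB and CDKB, 6), with CYCA (3) and CDKA (5) on their own.

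The series compared whole roots of 2 indica rice cultivars grown in nutrient solution, EPAGRI 108, which tolerates Fe toxicity, and BR-IRGA 409, which is susceptible to it. Plants received excess Fe (500 mg per L) or control Fe (6.5 mg per L) for 3 days, both as ferrous sulfate, with sodium sulfate added to the control solution. The 4 groups were EPAGRI 108 in excess Fe, EPAGRI 108 in control, BR-IRGA 409 in excess Fe and BR-IRGA 409 in control, with 3 arrays labelled as biological replicates in each. RNA was hybridised to the GeneChip Rice Genome Array, and each value below is an RMA value, a log2 intensity.

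The 12 arrays had medians of 5.16 to 5.22, and 30305 to 34108 probe sets lay above the floor, the highest of 23 control probe sets without a rice target on that array (4.51 to 5.01). In every group, the array numbered 1 stood apart from arrays 2 and 3 on the third principal component. On the second component, control array 1 of EPAGRI 108 stood at -9.04, toward the 3 excess Fe arrays (4.29 to 30.7), while the other 2 control arrays stood at -54.9 and -56.1. Of the 41 cell cycle probe sets, 35 were above the floor on all 12 arrays. Another 5 were at or under it on all 12 (1 of the 2 for CDKA-1, 1 of the 2 for KRP4, 1 of the 2 for KRP6 and both for MCM8), so their differences are not read as levels. The remaining one, for MCM9, was at or under the floor on 10 of the 12 arrays. A probe set whose name ends in _x_at or _s_at can bind transcripts of related genes, and its value is uncertain for that reason.

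In roots of the susceptible cultivar BR-IRGA 409, genes of the G1, S and G2/M classes and an A-type cyclin were lower in excess Fe than in control. No CDKA probe set passed the test. Of the 41 probe sets, 11 were lower in excess Fe at an adjusted p under 0.05 (limma, Benjamini-Hochberg over all 57258 probe sets) and 0 were higher. That is 26.8% of the members, where 3.41% of all probe sets were lower and 4.24% higher. Among all probe sets above the floor in at least 1 group, 6.56% were lower, and 12 of the 35 members there. The 11 are 3 D-type cyclins, PCNA, 4 subunits of the MCM helicase, 1 A-type cyclin, 1 B-type cyclin and the kinase CDKB2-1. The size of the falls was moderate: at one end CYCD4-1 fell by 28.6%, and at the other CYCD4-2 fell by 45.1%. None of the 11 reached 3-fold (0 of 41, where 0.250% of all probe sets were at least 3-fold lower). At an unadjusted p under 0.05, 17 were lower and 0 higher, where 9.77% and 8.69% of all probe sets were. Taken without a threshold, 33 of the 41 differences were below 0, and their median was -0.23 on the log2 scale against -0.03 over all probe sets. In 17 of the 41, all 3 excess Fe arrays lay below all 3 control arrays, an arrangement found in 13.1% of all probe sets, and in 0 did they all lie above (11.1% of all probe sets).

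Of the 11 probe sets of replication genes, 5 fell, and the class had a median of -0.53. PCNA measured 10.01, 9.73 and 10.08 on the excess Fe arrays and 10.71, 10.55 and 10.51 on the control arrays of BR-IRGA 409. Every excess Fe value lay below every control value, and PCNA fell by 0.65 ± 0.13 (SE, adjusted p = 0.0097). MCM4, a helicase subunit, measured 8.43, 8.06 and 8.38 in excess Fe and 8.92, 8.98 and 8.84 in control. Its groups were far apart relative to their spread, and the difference was -0.62 ± 0.13 (adjusted p = 0.0096), the smallest adjusted p among the members.

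The other helicase subunits measured stood lower in excess Fe as well. MCM3 had 8.21, 7.50 and 7.91 in excess Fe against 8.86, 8.65 and 8.51 in control, a difference of -0.80 ± 0.18 (adjusted p = 0.017). MCM5 had 8.78, 8.16 and 8.59 against control values of 9.23, 9.12 and 8.97, a difference of -0.60 ± 0.17 (adjusted p = 0.047). Neither subunit overlapped between the groups, and excess Fe array 2 was the lowest for both. MCM7 had 8.17, 7.82 and 8.25 in excess Fe and 8.57, 8.77 and 8.57 in control, and fell by 0.55 ± 0.13 (adjusted p = 0.021). MCM2, with 9.13, 8.52 and 8.86 against 9.53, 9.46 and 9.12, overlapped its controls by a narrow margin and did not pass (-0.53 ± 0.18, adjusted p = 0.098). With the array number as a block within cultivar, which compares arrays of the same number, MCM2 passed (adjusted p = 0.042).

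MCM8 and MCM9, which in animals act in DNA recombination and repair and are not part of the replicative helicase, were read apart. The 5 probe sets of MCM8 and MCM9 had a median difference of 0.01 and 0 passed, while the 5 probe sets of MCM2, MCM3, MCM4, MCM5 and MCM7 had a median of -0.60. This grouping was made after the values were seen, and the difference between the groups was not tested. Both MCM8 probe sets were under the floor on every array. Another, for MCM9 (-0.21), was at or under it on 10 of the 12 arrays, so the differences of these dim probe sets are not read as levels. The MCM9 probe sets above the floor on all 12 arrays had differences of 0.09 and 0.01. The brighter MCM9 probe set followed the array number: it measured 8.08 to 8.19 on the 4 arrays numbered 1 and 6.88 to 7.58 on the other 8, whatever the cultivar or the Fe supply. The MCM6 gene carries only the synonym OsMCM6 and so is not a member. Its probe set measured 7.53, 7.13 and 7.50 in excess Fe against 8.18, 8.24 and 7.96 in control, a difference of -0.74 ± 0.14 (adjusted p = 0.0050).

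Among the G1 genes, 3 of the 10 CYCD probe sets fell and 0 of the 6 KRP probe sets did. CYCD4-2 had the largest fall of all members. It measured 6.80, 6.63 and 6.69 in excess Fe against 7.11, 7.90 and 7.72 in control, a difference of -0.87 ± 0.20 (adjusted p = 0.020). Control array 1 was by far the lowest of its 3 controls. CYCD6-1 measured 5.92, 6.13 and 5.92 in excess Fe and 6.88, 6.73 and 6.68 in control, with no overlap and a difference of -0.77 ± 0.17 (adjusted p = 0.016). The Arabidopsis cyclin of the same name is known for the formative divisions that give rise to the cortex and the endodermis. CYCD4-1 measured 8.85, 8.60 and 8.87 against control values of 9.33, 9.21 and 9.25, and fell by 0.49 ± 0.12 (adjusted p = 0.032).

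The remaining CYCD members did not pass, with differences between -0.32 for CYCD3-2 and 0.13 for 1 of the 2 probe sets of CYCD5-2. CYCD5-2, whose other probe set is the brightest of the family, gave 9.64, 9.38 and 9.29 there in excess Fe and 9.54, 9.35 and 9.33 in control (0.03 ± 0.12, adjusted p = 0.94), with overlapping groups. The KRP inhibitors had differences between -0.50 and 0.06. KRP1 measured 8.67, 8.84 and 8.93 in excess Fe against 8.98, 9.13 and 9.05 in control (-0.24 ± 0.10, adjusted p = 0.20). The KRP6 probe set above the floor measured 7.56, 7.06 and 7.25 against 7.77, 7.94 and 7.66 (-0.50 ± 0.16, adjusted p = 0.094). For these 2 inhibitors the excess Fe arrays all lay below the control arrays, but neither difference passed the threshold. Without the 4 arrays numbered 1, KRP6 (-0.65, adjusted p = 0.026) and KRP5 (-0.46, adjusted p = 0.034) were lower, and CYCD4-1 did not pass (adjusted p = 0.062).

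In G2/M, all 6 probe sets were below 0, with a median of -0.48, and 2 of them fell. CYCB1-1, a B-type cyclin of mitotic entry, measured 9.37, 8.95 and 9.32 in excess Fe and 9.76, 9.84 and 9.66 in control (-0.54 ± 0.14, adjusted p = 0.033). CDKB2-1, the mitotic kinase, measured 8.90, 8.78 and 9.26 against control values of 9.29, 9.67 and 9.49 (-0.50 ± 0.14, adjusted p = 0.0495). Its highest excess Fe array nearly reached its lowest control array. With the block within cultivar neither passed (adjusted p = 0.052 for CYCB1-1 and 0.056 for CDKB2-1), and without the 4 arrays numbered 1 CDKB2-1 did not pass (adjusted p = 0.061).

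CYCB2-1 and the pair of CYCB2-2 probe sets lay close to the threshold. CYCB2-1 measured 8.63, 8.37 and 8.74 in excess Fe against 9.15, 9.12 and 8.87 in control (-0.47 ± 0.15, adjusted p = 0.086). The CYCB2-2 probe set ending in _x_at measured 7.54, 7.28 and 7.43 against 7.92, 7.92 and 7.76 (-0.45 ± 0.13, adjusted p = 0.052), and the other one had -0.68 ± 0.27 (adjusted p = 0.19). The block within cultivar brought both CYCB2-2 probe sets past the threshold (adjusted p = 0.036 and 0.016). CYCB1-3, for which the annotation also lists the synonym CycB1-1, was dim but above the floor and had a difference of -0.09 ± 0.20.

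The A-type cyclins were not alike. CYCA2-1 measured 8.89, 8.32 and 8.61 in excess Fe and 9.64, 9.40 and 9.26 in control, with no overlap, and fell by 0.83 ± 0.20 (adjusted p = 0.023). CYCA3-2 had -0.23 ± 0.12 (adjusted p = 0.34) and CYCA1-4 0.11 ± 0.11 (adjusted p = 0.71). CDKA, the kinase that D-type and A-type cyclins bind, showed no called difference in any of 5 probe sets. The brightest, for CDKA-1, measured 10.12, 9.87 and 10.00 in excess Fe and 10.38, 10.04 and 10.06 in control (-0.16 ± 0.14, 95% interval -0.47 to 0.15, adjusted p = 0.645). The 3 probe sets of CDKA-2 ranged between -0.06 and 0.17. The median over CDKA was -0.06, close to the -0.03 of all probe sets.

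**Figure D1:**
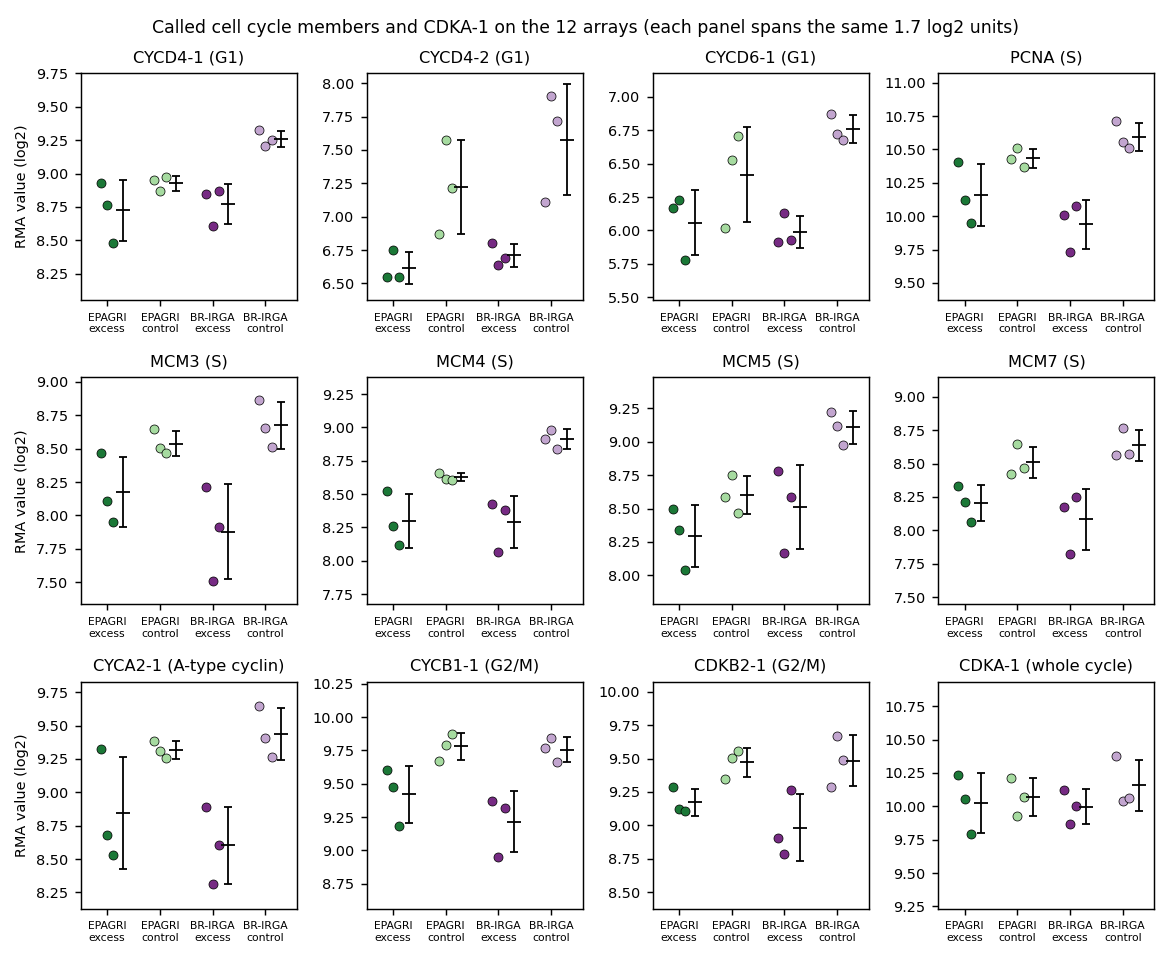
RMA values (log2, vertical axis) of the 11 probe sets called in BR-IRGA 409 and of CDKA-1 on each of the 12 arrays, by group along the horizontal axis. Points are arrays, numbered 1 to 3 within a group from left to right, the bar beside them is the mean with its SD (n = 3), and all panels span the same number of log2 units. In BR-IRGA 409 the 3 excess Fe points lie below the 3 control points in all panels but that of CDKA-1.

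How many members passed in BR-IRGA 409 depended on single arrays. It was 2 without excess Fe array 2 (MCM4 and CYCD6-1), 5 without excess Fe array 3, 3 without control array 2, 5 without control array 1 and 6 without control array 3. In these 5 fits, 1011 to 1518 of all 57258 probe sets were lower, against 1951 with all arrays. Excess Fe array 2 held the lowest of all 12 values for 7 of the 11 members. MCM4 passed in all 12 fits that left out 1 array each and PCNA in 11 of them, while MCM5 and CDKB2-1 passed in 3. Only 6 of the 12 fits left out an array of BR-IRGA 409 itself. Among these 6, MCM4 passed in 6, PCNA in 5, MCM7 in 4, and MCM3 and CYCD6-1 in 3. CYCD4-2, CYCA2-1 and CDKB2-1 passed in 2 of them, MCM5 and CYCB1-1 in 1 and CYCD4-1 in 0. The block within cultivar called 12 members lower, where 5.30% of all probe sets were. Without the 4 arrays numbered 1 there were 14, against 4.87% of all probe sets. In whole roots, fewer dividing cells and less of these transcripts per dividing cell cannot be told apart.

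In roots of the tolerant cultivar EPAGRI 108, the same genes stood slightly lower in excess Fe, and none of them passed the test. Directions here follow the array labels, which for this cultivar run opposite to the tables of the study. With limma, 0 of the 41 members were called in either direction, where 0.222% of all probe sets were lower and 0.770% higher. At an unadjusted p under 0.05, 6 were lower and 0 higher, where 5.29% and 5.04% of all probe sets were. The methods' t-test with Benjamini-Hochberg adjustment called 0 of the 41, but also 0 of all 57258 probe sets. Of the 41 differences, 32 were below 0. Medians were -0.16 in G1, -0.28 in S, -0.31 in G2/M, -0.18 for CYCA and 0.08 for CDKA, against -0.01 over all probe sets.

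The replication genes of EPAGRI 108 showed the spread behind this. PCNA measured 10.41, 10.12 and 9.95 in excess Fe and 10.43, 10.51 and 10.37 in control. Excess Fe array 1 lay among the controls and the other 2 below them, and the difference was -0.28 ± 0.13 (adjusted p = 0.53). MCM4 measured 8.52, 8.26 and 8.12 against control values of 8.66, 8.61 and 8.61, with no overlap (-0.33 ± 0.13, adjusted p = 0.34). MCM7 measured 8.33, 8.21 and 8.06 against 8.42, 8.64 and 8.47, again apart (-0.31 ± 0.13, adjusted p = 0.41). MCM3 and MCM5 had -0.36 ± 0.18 and -0.31 ± 0.17 with adjusted p of 0.54 and 0.60, and MCM2 had -0.20 ± 0.18 (adjusted p = 0.87).

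CYCD4-2 had the largest difference in EPAGRI 108 too. It measured 6.55, 6.75 and 6.55 in excess Fe and 6.87, 7.58 and 7.21 in control, with no overlap (-0.60 ± 0.20, adjusted p = 0.24). CYCD6-1 measured 6.17, 6.23 and 5.78 against 6.02, 6.53 and 6.71, where control array 1 lay below 2 of the excess Fe arrays (-0.36 ± 0.17, adjusted p = 0.52). CYCD4-1, with 8.93, 8.77 and 8.48 against 8.95, 8.87 and 8.97, had -0.20 ± 0.12 (adjusted p = 0.71).

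Of the 6 G2/M probe sets, 2 were separated between the groups in EPAGRI 108. CYCB1-1 measured 9.60, 9.47 and 9.18 in excess Fe against 9.67, 9.79 and 9.88 in control (-0.36 ± 0.14, adjusted p = 0.34). CDKB2-1 measured 9.28, 9.12 and 9.11 against 9.35, 9.51 and 9.56 (-0.30 ± 0.14, adjusted p = 0.50). The other G2/M probe sets overlapped, with differences of -0.23 for CYCB2-1, -0.32 and -0.38 for CYCB2-2 and -0.19 for CYCB1-3. CYCA2-1 overlapped as well, with 9.33, 8.68 and 8.53 in excess Fe and 9.39, 9.31 and 9.26 in control (-0.47 ± 0.20, adjusted p = 0.41), its excess Fe array 1 standing with the controls. KRP1 had 8.76, 8.76 and 8.66 against 8.89, 8.93 and 8.98 (-0.20 ± 0.10, adjusted p = 0.52). In all, 6 members had every excess Fe array below every control array (CDKB2-1, CYCB1-1, CYCD4-2, KRP1, MCM4 and MCM7), where 7.07% of all probe sets did. In 1 member, a CDKA-2 probe set, all lay above (6.34% of all probe sets).

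Array 1 of this cultivar changed the calls. Without excess Fe array 1, CYCA2-1 fell by 0.71 (adjusted p = 0.048) and was the only member called, where 1.27% of all probe sets were lower. Without control array 1, which stood toward the excess Fe arrays, none of the 11 members called in BR-IRGA 409 passed in EPAGRI 108. In that fit, 676 of all 57258 probe sets were lower and 1539 higher. Without the 4 arrays numbered 1, CYCA2-1 (-0.68, adjusted p = 0.015) and CYCD4-2 (-0.74, adjusted p = 0.016) were called, where 3.37% of all probe sets were lower.

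**Figure D2:**
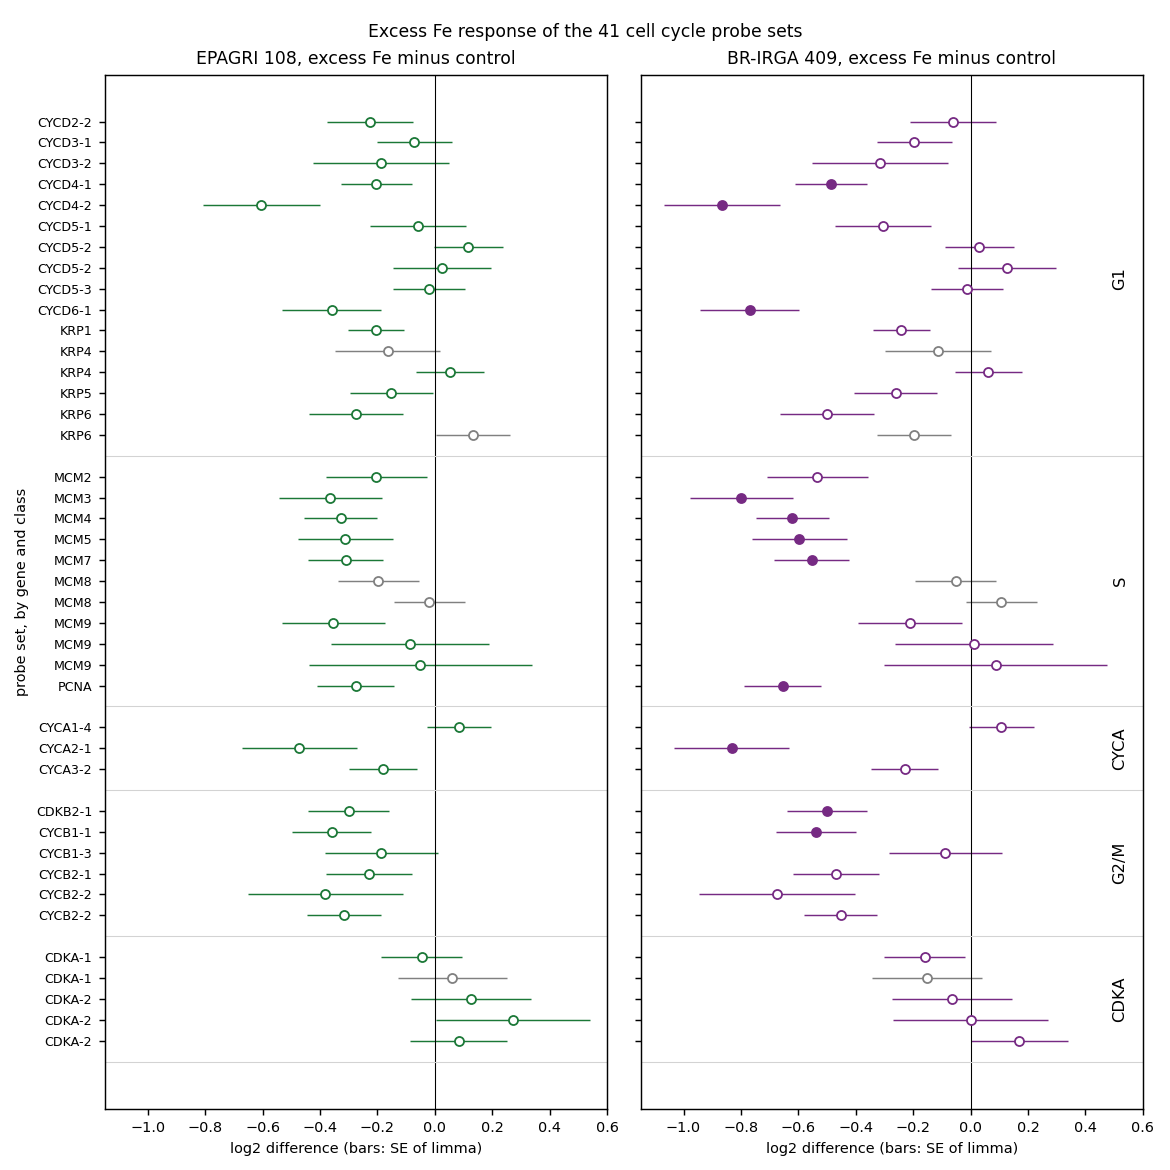
Log2 difference, excess Fe minus control (horizontal axis), with its SE from limma, for each of the 41 cell cycle probe sets (vertical axis, by class and gene), in EPAGRI 108 on the left and in BR-IRGA 409 on the right. Filled points are called at an adjusted p under 0.05 (0 in EPAGRI 108 and 11 in BR-IRGA 409), and grey ones were at or under the floor on all 12 arrays. S and G2/M points lie mostly left of 0 in both cultivars, while CDKA points lie around 0.

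Whether the cultivars differed in their response was tested directly. The difference between the responses, EPAGRI 108 minus BR-IRGA 409, was called for 0 of the 41 members with limma, and also at an unadjusted p under 0.05 for 0. Over all probe sets 0.119% had a lower and 0.0681% a higher response in EPAGRI 108, and 2.51% and 2.20% at an unadjusted p under 0.05. With the replicate block within cultivar, MCM3 had an unadjusted p of 0.043 (adjusted p = 0.67). The intervals were wide. For PCNA the responses of -0.28 in EPAGRI 108 and -0.65 in BR-IRGA 409 differed by 0.38 (95% interval -0.03 to 0.79). For MCM3 the difference was 0.43 (-0.12 to 0.99), for MCM4 0.29 (-0.10 to 0.68), for CYCD6-1 0.41 (-0.12 to 0.94) and for CYCA2-1 0.36 (-0.25 to 0.97). For CYCB1-1 it was 0.18 (-0.25 to 0.61) and for CDKB2-1 0.20 (-0.23 to 0.63). Each of these 7 intervals includes 0, and their upper bounds lie between 0.61 and 0.99.

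All 11 members called in BR-IRGA 409 were also below 0 in EPAGRI 108, and all 11 by a smaller amount. Neither count sets them apart, since they were picked by their fall in BR-IRGA 409. Of the 1951 probe sets lower in BR-IRGA 409, 95.3% were below 0 in EPAGRI 108 and 96.7% had a smaller fall there. If the control and excess Fe labels of EPAGRI 108 were exchanged, 12 members would be called for a higher response in EPAGRI 108, where 4.87% of all probe sets would be.

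The classes were also read array by array. For each array, the deviation of each probe set from its own mean over the 12 arrays was averaged over its class, as a description without a test. The S class averaged -0.16 ± 0.23 in EPAGRI 108 in excess Fe and 0.06 ± 0.14 in its control (SD, n = 3 each). In BR-IRGA 409 it averaged -0.12 ± 0.21 in excess Fe and 0.22 ± 0.16 in control. Array 1 was the highest of the 3 in this class in each group, but in EPAGRI 108 control this rested on MCM9. Without the 3 MCM9 probe sets, left out after seeing the data, arrays 1, 2 and 3 of EPAGRI 108 control stood at 0.088, 0.160 and 0.049, and array 1 was still the highest in the other groups. The excess Fe arrays of BR-IRGA 409 then lay between -0.42 and -0.052 and its control arrays between 0.120 and 0.34, without overlap. The G2/M class averaged -0.13 ± 0.26 in excess Fe and 0.16 ± 0.02 in control in EPAGRI 108, and -0.24 ± 0.17 in excess Fe and 0.21 ± 0.12 in control in BR-IRGA 409. Its excess Fe arrays of BR-IRGA 409 all lay below the controls, and those of EPAGRI 108 did so too, with array 1 (0.147) just under the lowest control (0.152).

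The G1 class varied little between replicates. It averaged -0.13 ± 0.04 in excess Fe and 0.01 ± 0.10 in control in EPAGRI 108, and -0.07 ± 0.05 in excess Fe and 0.19 ± 0.06 in control in BR-IRGA 409. In EPAGRI 108 the groups overlapped: control array 1 stood at -0.103, within the excess Fe arrays (-0.161 to -0.082), and control arrays 2 and 3 at 0.072 and 0.065. In BR-IRGA 409 the highest excess Fe array (-0.040) lay below the lowest control array (0.114). The CDKA class averaged 0.11 ± 0.14 in excess Fe and 0.01 ± 0.11 in control in EPAGRI 108, and -0.08 ± 0.14 in excess Fe and -0.04 ± 0.12 in control in BR-IRGA 409, with overlapping groups in both.

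**Figure D3:**
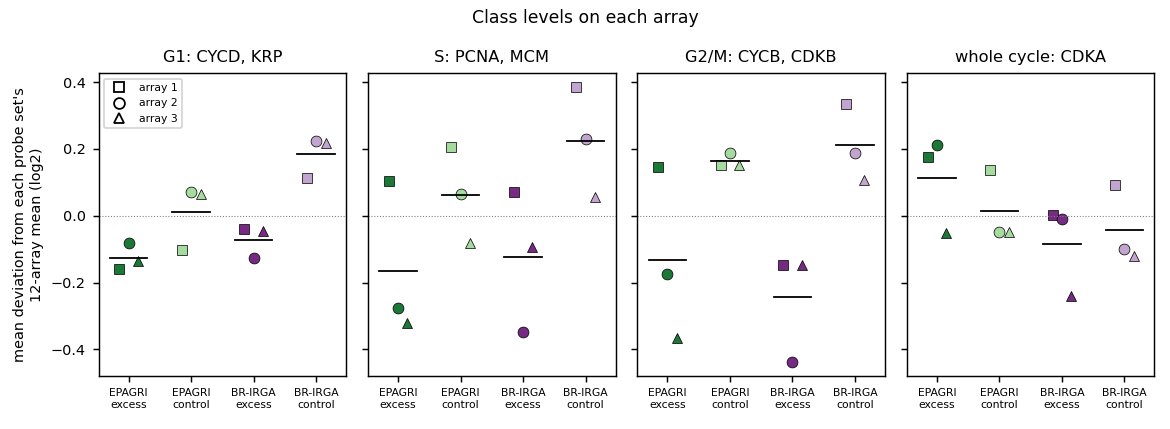
Mean deviation of the probe sets of a class from their own 12-array mean (log2, vertical axis) on each array, by group (horizontal axis), for G1, S, G2/M and CDKA. Symbols give the array number and lines the group means. The S class is highest on array 1 (squares) in every group, in EPAGRI 108 control through the MCM9 probe sets, and the G2/M class of BR-IRGA 409 lies between -0.44 and -0.15 in excess Fe and between 0.11 and 0.34 in control.

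Between the cultivars at the same Fe supply, no member differed beyond the threshold. Most transcripts that the array queries are of the japonica subspecies. Whether its probes match both indica cultivars equally was not tested, here or in later comparisons between the cultivars. In excess Fe, 0 of 41 were called with limma (over all probe sets, 2.00% were lower and 1.65% higher in EPAGRI 108). The methods' t-test with adjustment also called 0 of 41, but of all 57258 probe sets only 268 as lower and 296 as higher. At an unadjusted p under 0.05 in limma, 1 was lower and 1 higher (6.04% and 5.47% of all probe sets). CYCD2-2, a G1 cyclin, was the lower one, with 5.54, 6.05 and 5.90 in EPAGRI 108 and 6.41, 6.08 and 6.34 in BR-IRGA 409 (-0.45 ± 0.15, adjusted p = 0.19). In control, 0 were called by either test (1.62% of all probe sets lower and 1.64% higher), with 4 lower and 0 higher at an unadjusted p under 0.05 (5.27% and 4.88% of all probe sets). In control, all 3 arrays of EPAGRI 108 lay below all 3 of BR-IRGA 409 for 7 members and above them for 1, arrangements that 7.69% and 6.97% of all probe sets had. In excess Fe they did so for 1 and 0 members (8.03% and 8.33% of all probe sets). MCM5 had the lowest adjusted p in control. It measured 8.59, 8.75 and 8.47 in EPAGRI 108 control roots and 9.23, 9.12 and 8.97 in BR-IRGA 409 control roots, with no overlap (-0.50 ± 0.17, adjusted p = 0.19). CYCD4-1 was apart as well in control, with 8.95, 8.87 and 8.97 in EPAGRI 108 against 9.33, 9.21 and 9.25 in BR-IRGA 409 (-0.33 ± 0.12, adjusted p = 0.30). CYCD2-2 and MCM5 were chosen for naming after their values were seen.

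A list of other cell cycle genes (origin recognition, replication protein A, retinoblastoma-related proteins and partners of cyclin-dependent kinases) held 17 genes on 19 probe sets. In BR-IRGA 409, 5 of the 19 were lower in excess Fe and 0 higher (against 3.41% and 4.24% of all probe sets), with a median of -0.17. OsRPA70b and OsRPA32, subunits of the protein that coats single-stranded DNA, fell by 0.87 ± 0.14 and 0.81 ± 0.14 (adjusted p = 0.0028 and 0.0038). ORC1, of the complex that marks replication origins, measured 7.57, 7.29 and 7.65 in excess Fe and 8.13, 8.23 and 7.99 in control (-0.62 ± 0.12, adjusted p = 0.0086). OsRBR1, a retinoblastoma-related protein on which the cyclin D kinases act, was lower in both of its probe sets (-0.62 ± 0.17 and -0.90 ± 0.18, adjusted p = 0.045 and 0.0087), of which the second was at or under the floor on 5 arrays. The paralog OsRPA32-2 had 9.50, 9.19 and 9.15 in excess Fe against 9.03, 8.91 and 8.87 in control, above its controls on all 3 arrays, but the difference was not called (0.34 ± 0.12, adjusted p = 0.12).

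In EPAGRI 108, 0 of these 19 probe sets were called in excess Fe (0.222% of all probe sets were lower and 0.770% higher), with 5 lower and 0 higher at an unadjusted p under 0.05 (5.29% and 5.04% of all probe sets). Between the cultivars, 3 of the 19 were lower in EPAGRI 108 in excess Fe (2.00% of all probe sets) and 1 in control (1.62%), with 0 higher. ORC5 gave lower values in EPAGRI 108 at either Fe supply, and whether its probes match both cultivars equally was not tested. It measured 6.22, 6.36 and 6.11 in excess Fe in EPAGRI 108 against 7.71, 7.79 and 7.72 in BR-IRGA 409 (-1.51 ± 0.12, adjusted p = 4.9e-06), and in control the difference was -1.34 ± 0.12 (adjusted p = 1.6e-05). OsRPA32-2 (-0.57, adjusted p = 0.017) and CYCH-1, the cyclin of the CDK-activating kinase (-0.45, adjusted p = 0.045), were lower in EPAGRI 108 in excess Fe.

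Markers of other tissues moved in BR-IRGA 409 as well, and their part in these results was not tested. All 4 probe sets of the xylem wall cellulose synthases CESA4, CESA7 and CESA9 were lower in excess Fe in BR-IRGA 409 (-0.59 to -0.78). Their adjusted p in limma was 0.020 to 0.033, and 3.41% of all probe sets were called lower. Their summed linear intensity was 6296 to 6500 in excess Fe and 9496 to 10140 in control in BR-IRGA 409. In EPAGRI 108 it was 6994 to 9245 in excess Fe and 9285 to 12450 in control. There 0 of 4 were called (0.222% of all probe sets were lower), but all 4 were below 0 (-0.36 to -0.46). At an unadjusted p under 0.05 (limma) all 4 were lower, where 5.29% of all probe sets were. Leaf markers were not silent: the 6 probe sets of RBCS and CAB2R summed to 1240 to 1705 in excess Fe and 1243 to 2922 in control in EPAGRI 108, and to 3566 to 4717 in excess Fe and 4493 to 9685 in control in BR-IRGA 409. Of them, 1 RBCS probe set was under the floor on all arrays, and 2 of RBCS were lower in excess Fe in BR-IRGA 409 (3.41% of all probe sets). At an unadjusted p under 0.05 (limma), 3 of the 6 were lower there and 1 was higher, by 0.43 (9.77% and 8.69% of all probe sets). Between the cultivars, 4 of the 6 were lower in EPAGRI 108 in control and 1 in excess Fe (1.62% and 2.00% of all probe sets). The root regulators SCR1 and SHR1 summed to 171.4 to 281.9 in excess Fe and 177.5 to 355.3 in control in EPAGRI 108, and to 221.0 to 289.7 in excess Fe and 244.1 to 393.0 in control in BR-IRGA 409. SCR1 and SHR1 had -0.68 and -0.29 in BR-IRGA 409 (adjusted p = 0.063 and 0.73) and -0.35 and -0.20 in EPAGRI 108, and SCR1 was at or under the floor on 4 arrays. QHB, a regulator of the quiescent centre and the only meristem marker listed here, had -0.15 ± 0.11 in BR-IRGA 409 (adjusted p = 0.58) and -0.04 ± 0.11 in EPAGRI 108 (adjusted p = 0.99), and was above the floor on all arrays.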

How the data were processed

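Whole-root RNA of 12 samples was measured on the GeneChip Rice Genome Array. The authors scanned the arrays with GCOS, summarised probes by RMA in ArrayAssist and stabilised the variance by adding a fixed quantity whose size is not given in the sources used here. The deposited values are log2 intensities with nearly equal medians over arrays, so a shift of all genes cannot be seen. Because RMA already equalises the arrays, differences are relative to the rest of the transcriptome, and differences of dim genes are compressed. Of 57381 probe sets, 123 controls were left out. Genes were named through the platform annotation and RefSeq synonyms (assembly ASM3414082v1), and 34727 probe sets have no gene listed.

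One linear model per probe set over the 12 arrays (limma 3.58.1, R 4.3.3) held 4 group means, with 8 residual degrees of freedom and moderated variances. P-values were adjusted over all 57258 probe sets by the method of Benjamini and Hochberg, with a threshold of 0.05. The procedure was tested on simulated data. P-values measure the spread between these arrays, and 3 arrays per group limit the precision. The methods' unadjusted t-test with at least 3-fold was an alternative, as were another added quantity, scaling by median or quantile, the floor, a replicate block, and leaving out arrays.

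The labels number the arrays but state no pairing. Within each cultivar, the deviations of same-numbered excess Fe and control arrays correlated at 0.108 to 0.490 in 6 of 6 pairs. The 6 are not independent, since deviations within a group sum to 0. A block by array number was therefore fitted as an alternative. The main fit held no block, so its calls, SE and intervals do not use this pairing. Members, classes and gene lists were chosen with earlier results of these data known. Named with values are all called members, the brightest member of each family and called genes of the other cell cycle list. Members close to the threshold and non-called values of contrasting genes were added after their values were seen. No sequences are shown.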

Additional observations from a re-analysis of the deposited data

Results flagged for a closer look

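The dim one of the KRP6 probe sets, for a Kip-related inhibitor of cyclin-dependent kinases, ran in opposite directions in the 2 cultivars. In EPAGRI 108 the 3 excess Fe arrays lay above the control mean, by 0.26, 0.0993 and 0.0401 on the log2 scale, with a mean of 0.133. In BR-IRGA 409 the differences from its own control mean were -0.0646, -0.214 and -0.313, with a mean of -0.197. The difference between the responses was 0.33 on the log2 scale and was not called with limma. The probe set was at or under the floor on all 12 arrays, while the other KRP6 probe set, above the floor on all 12, was below 0 in both cultivars (-0.27 in EPAGRI 108 and -0.50 in BR-IRGA 409).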

How the results depend on the processing

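In BR-IRGA 409, the count of members lower in excess Fe was 11 and stayed between 8 and 15 when 16 was added to the linear values, arrays were shifted to a common median or quantile normalized, only probe sets above the floor or only the compared groups were fitted, or a replicate block was added. In these fits 1635 to 3289 of all probe sets fitted were lower, against 1951 in the main fit. The count of members was 0 with a further 3-fold limit (143 of all probe sets). It was 0 by the methods' t-test, unadjusted, with 3-fold (142 of all). It was 1 by the methods' t-test with Benjamini-Hochberg adjustment (CYCD5-1, 340 of all), which uses only the spread of each probe set's own 6 arrays. It was 2 to 12 when 1 array was left out (1011 to 2220 of all). In EPAGRI 108, the count of 0 was 0 to 1 when 1 array was left out (0 to 725 of all probe sets lower). It was 2 without the 4 arrays numbered 1 (1928 of all), an alternative chosen after seeing the data. Among the fits that left out 1 array, only those without excess Fe array 1 or control array 1 of EPAGRI 108 called any probe set lower. With 16 added or only the compared groups fitted, 0 of all 57258 were called. Where no probe set was called lower, a count of 0 members says nothing about the members. The count for the difference between the responses was 12 with the EPAGRI 108 labels exchanged, and the methods' t-test gives no value for that difference. The causes of the other shifts were not tested.

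With the replicate number as a block, 15 members were lower in BR-IRGA 409 over all 4 groups and 12 within each cultivar, and 0 were called in EPAGRI 108 either way. Within cultivar the block called 0 of all 57258 probe sets in EPAGRI 108. For the difference between the responses, the block over all 4 groups gave unadjusted p of 0.034 for MCM3 and 0.039 for the dim KRP6 probe set (adjusted p = 0.65 and 0.67). Other calls that the block within cultivar changed stand beside the results.

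Some class medians moved by more than the spread between arrays when 1 array was left out. The median response of G1 in EPAGRI 108 was -0.21 to -0.0784, and the difference between the responses was 0.0584 to 0.19 in G1 and 0.00415 to 0.30 for CDKA (0.0141 with 1 probe set per gene). Between EPAGRI 108 and BR-IRGA 409 in control, the median was -0.26 to -0.12 in G1 and -0.13 to 0.18 for CDKA. In excess Fe it was -0.0363 to 0.24 in G2/M and 0.0318 to 0.23 for CDKA. Of these medians, those of CDKA in control and of G2/M in excess Fe took both signs. Members at or under the floor have no measured level, and differences of dim members are compressed.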
